A study of Rattus norvegicus with 24 samples.

Results

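The genes described here mark the oligodendrocyte lineage: the transcription factor genes Olig1, Olig2, Sox10 and Nkx2-2, the progenitor surface genes Pdgfra and Cspg4, and the myelin genes Mbp and Mog. They were chosen by symbol from the deposited expression table, and 8 of 8 were found among its 17420 genes. RNA was sequenced from the hippocampus and neocortex of 24 Sprague-Dawley rat pups on embryonic day 18, with 6 pups in each of 4 groups named Saline, Low Protein, MAM and Poly I:C. In the MAM group, the dam was injected with the DNA-methylating agent methylazoxymethanol acetate at 22 mg/kg on gestational day 17. In the Poly I:C group, the dam was injected on gestational day 17 with polyinosine:cytosine, a double-stranded RNA that mimics a viral infection, at 7.5 mg/kg. Saline dams were injected with saline on gestational day 17, and tissue was collected 18 hours after these injections. In the Low Protein group, the dam ate a diet with 6.1% protein from gestational day 11 to 18, against 20.3% in the control diet. The diet of the injected dams and any injection of the Low Protein dams are not given separately in the sources used here. A group is made up of 2 litters with 3 pups each. The first part of a pup number was read as its litter (pup 2.1 as the first pup of litter 2). The sources used here do not state this reading, and every result by litter rests on it. The dam was treated and the pup is the replicate, so p-values measure the spread between pups.

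Oligodendrocyte precursors of the forebrain arise first in the ventral telencephalon, including the ganglionic eminences, and migrate from there into the cortex. OLIG2 and NKX2-2 act in their specification under Hedgehog signaling, SOX10 acts in their differentiation, and PDGFRA, the receptor for platelet-derived growth factor A, carries the signal by which precursors survive and divide. Myelin proteins such as MBP and MOG are made mainly after birth in the rat. Several of these genes are also expressed outside the lineage: Olig2 and Olig1 in progenitors of the ganglionic eminence, Cspg4 in pericytes, Pdgfra in meningeal and perivascular fibroblasts, and Sox10 in cells of the neural crest.

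The values are TPM (transcript abundance scaled by library size and gene length) as deposited, with an offset of 0.0001, and sum to 70350.1 in each pup. They scale with the genomic span of a gene, introns included, so a gene with long introns such as Mbp (110523 bases) appears low. Reads per pup were estimated from the steps between low values at between 25 M and 64.8 M (M for megareads; median 37.7 M). The tissue label was checked against markers of cortical excitatory neurons: Neurod6 had a mean of 98.1 TPM over 24 pups and Tbr1 a mean of 14.0 TPM, and both were above the offset in every pup. Saline pup 2.1 stood apart. It had the highest summed TPM of 24 pups over 9 ganglionic eminence markers (107) and the lowest over 5 cortical excitatory neuron markers (112). The counts, and the differences that it moved most, are given with and without it. In bulk tissue, fewer cells of a type and less RNA per cell cannot be told apart.

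Each of the 8 genes was above the offset in 24 of 24 pups. On the deposited scale, mean TPM over 24 pups was 11.9 for Olig1, 4.05 for Olig2, 2.12 for Mog, 0.644 for Pdgfra, 0.453 for Sox10, 0.411 for Nkx2-2, 0.408 for Cspg4 and 0.119 for Mbp. In saline pups, Olig1 exceeded 95.1% of the 13371 genes that were fitted, and Mbp exceeded 28.5%. Estimated reads per pup ranged from 887 to 3266 for Pdgfra and from 737 to 2252 for Olig1, but from 110 to 331 for Sox10 and from 42 to 1180 for Nkx2-2, so Sox10 and the lowest Nkx2-2 values carry the most counting error.

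**Figure D1:**
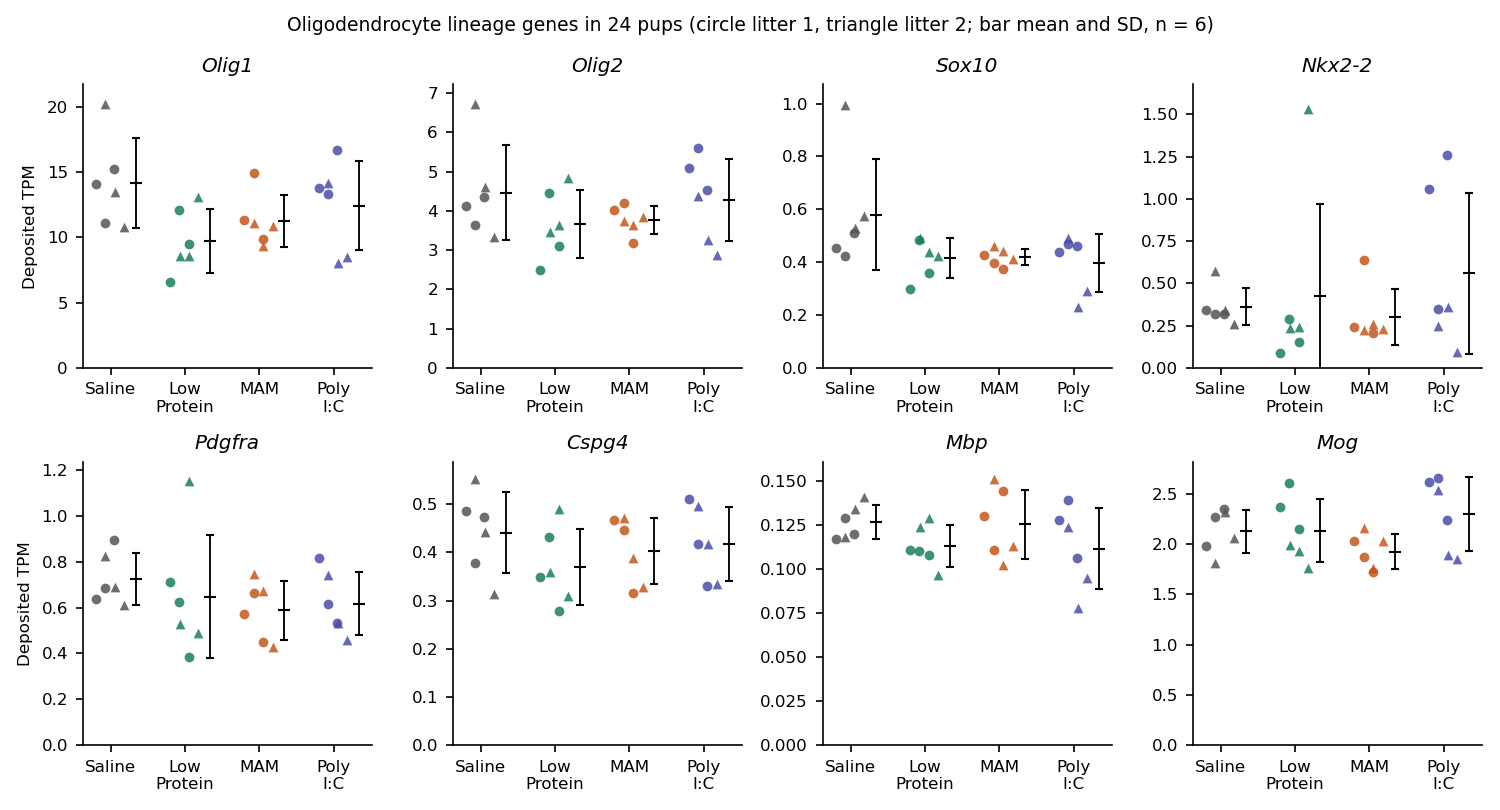
Deposited TPM of the 8 genes in each pup by group (circles, litter 1; triangles, litter 2), with the mean and SD of 6 pups beside each group; the lower error bar of Nkx2-2 in Low Protein ends at the axis. Saline pup 2.1 is the highest point for Olig1 (20.2), Olig2 (6.73), Sox10 (0.993) and Cspg4 (0.552).

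Olig1 and Olig2 encode basic helix-loop-helix factors that define the lineage, and they lie 35488 bases apart on chromosome 11 of the GRCr8 assembly (Olig1 at chr11:44000450-44002592, Olig2 at chr11:43961585-43964961). Olig1 ranged from 10.8 to 20.2 TPM in saline pups, with a median of 13.8 and a mean of 14.2 ± 3.45 (SD, n = 6). In Low Protein pups, Olig1 ranged from 6.58 to 13.1 TPM, with a median of 9.03 and a mean of 9.73 ± 2.43 (SD, n = 6). Thus 6 of 6 Low Protein pups were below the saline mean, although the ranges overlapped. The log2 difference from saline was -0.55 (SE 0.195), with an exact two-sided permutation p of 0.0238 and a limma adjusted p of 0.684 (Benjamini-Hochberg over 13371 genes). Without saline pup 2.1, the log2 difference of Olig1 in Low Protein was -0.44 and stayed under an unadjusted limma p of 0.05.

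Olig1 in MAM pups ranged from 9.36 to 14.9 TPM, with a median of 11.0, and had a log2 difference from saline of -0.31 (SE 0.195, limma adjusted p = 0.559). In Poly I:C pups, Olig1 ranged from 8.07 to 16.7 TPM with a median of 13.5, and the log2 difference was -0.21 (SE 0.195, limma adjusted p = 0.794). The litters of Poly I:C overlapped, and the lowest pups were both of litter 2. Olig1 was between 13.3 and 16.7 TPM in litter 1, whereas in litter 2 pup 2.1 was at 14.2 and pups 2.2 and 2.3 were at 8.07 and 8.52.

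Olig2 ranged from 3.32 to 6.73 TPM in saline pups (median 4.23, mean 4.46 ± 1.21, SD, n = 6), from 2.50 to 4.83 in Low Protein (median 3.55), from 3.18 to 4.21 in MAM (median 3.78) and from 2.87 to 5.59 in Poly I:C (median 4.45). The 4 groups overlapped, and the saline group was extended upward by pup 2.1, the only saline pup above 4.61 TPM. The log2 differences of Olig2 from saline were -0.28 for Low Protein, -0.21 for MAM and -0.06 for Poly I:C (SE 0.179 each), with limma adjusted p-values of 0.772, 0.657 and 0.953. MAM pups varied least, with a coefficient of variation of 9.42% against 27.1% in saline. Without saline pup 2.1, these differences of Olig2 were -0.15, -0.08 and 0.07, so that the Poly I:C mean was above saline, and those of Olig1 were -0.20 for MAM and -0.10 for Poly I:C.

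The 250 bases before the start of Olig2 are shown because this gene leads the first of the groups of covarying genes described further on (RefSeq, GRCr8, chr11:43961335-43961584, plus strand, 5′ to 3′). Capitals mark matches on either strand to CANNTG, the E-box letters that basic helix-loop-helix factors bind, or to GGGCGG, the GC box.
Olig2: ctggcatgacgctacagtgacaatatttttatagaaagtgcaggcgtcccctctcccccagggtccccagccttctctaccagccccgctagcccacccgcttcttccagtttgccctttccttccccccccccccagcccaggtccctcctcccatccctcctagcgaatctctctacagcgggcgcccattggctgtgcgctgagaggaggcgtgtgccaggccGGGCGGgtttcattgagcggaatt
The window holds 1 GC box, whose first base lies 24 bases before the start, and 0 E-boxes. Of 27457 RefSeq promoter windows of the same length, 32.4% hold GGGCGG and 65.2% hold an E-box. The core letters bound by SOX factors, ACAAAG, are not in this window and are in 16.0% of all windows. The window's GC content is 62.0%.

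Sox10, which encodes the factor that drives myelin gene expression, had a mean below saline in each treatment group. Saline pups ranged from 0.425 to 0.993 TPM, with a median of 0.519 and a mean of 0.580 ± 0.209 (SD, n = 6). Low Protein pups ranged from 0.299 to 0.493 TPM (median 0.431), MAM pups from 0.375 to 0.461 (median 0.419) and Poly I:C pups from 0.229 to 0.493 (median 0.450). In each treatment group, 6 of 6 pups were below the saline median and mean, but each range reached above the lowest saline pup. The log2 difference of Sox10 was -0.44 for Low Protein (limma adjusted p = 0.698), -0.41 for MAM (adjusted p = 0.51) and -0.54 for Poly I:C (adjusted p = 0.407), with an SE of 0.196 in each, and each passed an unadjusted limma threshold of 0.05. On litter means, with 2 litters a group, none of the 3 differences of Sox10 passed that threshold, and under both other scalings of the pups the MAM difference did not pass it (-0.35 and -0.36). The exact two-sided permutation p-values, 6 pups against 6, were 0.039, 0.0152 and 0.0519. The smallest p that these splits of pups allow is 0.00216. These tests take pups as independent and ignore litter, although the dam was treated and a group had only 2 litters.

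These 3 comparisons share the saline pups, and the value of Sox10 in saline pup 2.1 (0.993 TPM) was far above the other saline pups, which reached at most 0.574. Without that pup, the log2 differences of Sox10 were -0.27 for Low Protein, -0.24 for MAM and -0.37 for Poly I:C, and only that for Poly I:C passed the unadjusted limma threshold of 0.05. Without saline litter 2, the differences were -0.17, -0.14 and -0.27, and none passed it. Without saline litter 1, which leaves pup 2.1 among 3 saline pups, they were -0.71, -0.68 and -0.81, and each passed it. The summed level of 4 neural crest and Schwann cell markers was highest in Low Protein pup 2.2 (1.07 TPM), whose Sox10 value was 0.437 TPM, and second highest in saline pup 2.1 (0.215 TPM). In the other pups it ranged from 0.0585 to 0.113 TPM. Among these markers, Cdh19 was at the offset in 12 of 24 pups, and Erbb3 and Gfra3 in 0. The part of these cells in the Sox10 result was not tested.

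Nkx2-2, a homeodomain gene of ventral progenitors, varied most among pups. Saline pups ranged from 0.262 to 0.575 TPM (median 0.333) and Low Protein pups from 0.0889 to 1.53 (median 0.238). MAM pups ranged from 0.205 to 0.636 (median 0.234) and Poly I:C pups from 0.0938 to 1.26 (median 0.352). Low Protein therefore held both the lowest (pup 1.1) and the highest (pup 2.3) of 24 values, and its coefficient of variation was 129%, against 30.3% in saline. The litters of Poly I:C differed by 1.93 on the log2 scale, with litter 1 higher. The log2 differences from saline were -0.40 for Low Protein, -0.36 for MAM and 0.18 for Poly I:C, with an SE of 0.581 in each and limma adjusted p-values of 0.932, 0.831 and 0.958. The 95% intervals ran from -1.61 to 0.81 in Low Protein and from -1.03 to 1.38 in Poly I:C, so differences of this size could not be told from 0 in these pups.

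Pdgfra (chr14:33360027-33408604 in GRCr8) and Cspg4 (chr8:66160942-66195987), the gene of the NG2 proteoglycan, mark the surface of precursor cells. Pdgfra ranged from 0.609 to 0.895 TPM in saline pups, with a median of 0.688 and a mean of 0.724 ± 0.112 (SD, n = 6). Low Protein pups ranged from 0.383 to 1.15 (median 0.578), MAM pups from 0.429 to 0.748 (median 0.618) and Poly I:C pups from 0.457 to 0.815 (median 0.575). The ranges overlapped in each comparison, and the spread was widest in Low Protein, where pup 1.3 was the lowest and pup 2.2 the highest of 24. The log2 differences of Pdgfra were -0.24 for Low Protein, -0.31 for MAM and -0.25 for Poly I:C (SE 0.208 each), with limma adjusted p-values of 0.857, 0.578 and 0.758. Without Low Protein pup 2.2, the difference in Low Protein was -0.42, which passed the unadjusted limma threshold of 0.05, and without Low Protein pup 1.3 it was -0.10.

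Low Protein pup 2.2 also had the highest sums of 24 pups over 5 meningeal fibroblast markers (31.3 TPM) and 7 pericyte markers (5.17 TPM), and pup 1.3 had a meningeal sum of 3.33 and a pericyte sum of 2.62. In saline pups, these sums ranged from 6.69 to 12.0 for meningeal fibroblasts and from 3.48 to 4.34 for pericytes. The part of these cells in the Pdgfra values was not tested.

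Cspg4 ranged from 0.313 to 0.552 TPM in saline pups (median 0.458, mean 0.441 ± 0.0847, SD, n = 6), from 0.278 to 0.491 in Low Protein (median 0.354), from 0.315 to 0.471 in MAM (median 0.418) and from 0.331 to 0.512 in Poly I:C (median 0.418). The log2 differences were -0.26, -0.12 and -0.07 (SE 0.158 each), and the limma adjusted p-values were 0.76, 0.781 and 0.932. Without saline pup 2.1, the differences of Cspg4 were -0.19, -0.05 and 0.00. The groups overlapped almost fully in MAM and Poly I:C, and 5 of 6 Low Protein pups were below the saline median. The gene overlaps Cimap1c by 16044 bases in GRCr8, and the strand setting of the counting is not given in the sources used here.

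The 250 bases before the start that the RefSeq promoter table uses for both surface genes are shown because these genes form the second group of covarying genes (RefSeq, GRCr8, 5′ to 3′; Pdgfra at chr14:33408517-33408766 on the minus strand, Cspg4 at chr8:66160692-66160941 on the plus strand). For Pdgfra, that start lies 88 bases inside the gene span given above, so the last 88 bases of its window belong to that span. Capitals mark CANNTG or GGGCGG on either strand, as for Olig2.
Pdgfra: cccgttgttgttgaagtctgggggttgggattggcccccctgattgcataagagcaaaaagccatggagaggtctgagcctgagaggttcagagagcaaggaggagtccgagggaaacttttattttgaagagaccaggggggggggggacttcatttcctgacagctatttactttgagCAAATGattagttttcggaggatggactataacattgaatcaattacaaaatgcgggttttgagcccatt
Cspg4: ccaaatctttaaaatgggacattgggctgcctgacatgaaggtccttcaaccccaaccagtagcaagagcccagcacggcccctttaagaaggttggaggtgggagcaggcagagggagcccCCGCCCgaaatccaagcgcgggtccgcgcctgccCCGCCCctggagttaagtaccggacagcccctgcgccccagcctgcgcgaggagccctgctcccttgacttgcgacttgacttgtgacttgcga
The Pdgfra window holds 1 E-box, whose first base lies 70 bases before the start used and therefore within the gene span, and 0 GC boxes. The Cspg4 window holds 2 GC boxes, at 128 and 94 bases before the start, and 0 E-boxes. GC content is 47.2% for Pdgfra and 62.0% for Cspg4, so these covarying genes differ in the letters searched for, and ACAAAG is in neither window. A match to these letters does not show that a factor binds.

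The myelin genes were measured at E18, before myelin forms. Mbp, which encodes myelin basic protein, ranged from 0.117 to 0.141 TPM in saline pups, with a median of 0.125 and a mean of 0.127 ± 0.00968 (SD, n = 6). It ranged from 0.0963 to 0.129 in Low Protein (median 0.110), from 0.102 to 0.151 in MAM (median 0.122) and from 0.0779 to 0.139 in Poly I:C (median 0.115). Of 6 Low Protein pups, 5 were below the saline median, and the ranges overlapped in each comparison. The log2 differences of Mbp were -0.17, -0.02 and -0.21 (SE 0.122 each), with limma adjusted p-values of 0.803, 0.954 and 0.643. Under both other scalings of the pups, the MAM difference was above 0. The Mbp locus also encodes Golli transcripts, which are made in neurons, and values per gene do not separate them from myelin basic protein transcripts.

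Mog, which encodes myelin oligodendrocyte glycoprotein, ranged from 1.81 to 2.35 TPM in saline pups (median 2.16, mean 2.13 ± 0.215, SD, n = 6), from 1.76 to 2.61 in Low Protein (median 2.07), from 1.72 to 2.16 in MAM (median 1.95) and from 1.85 to 2.66 in Poly I:C (median 2.39). The log2 differences were 0.00 in Low Protein (95% interval from -0.22 to 0.22), -0.14 in MAM and 0.10 in Poly I:C (SE 0.107 each), and the limma adjusted p-values were 0.999, 0.615 and 0.818. Mog (chr20:1514110-1528716) overlaps the zinc finger gene Zfp57 by 2152 bases in GRCr8. Zfp57 had a saline mean of 8.47 TPM, and its log2 values followed those of Mog over 24 pups (Pearson r 0.79, Spearman rho 0.83, permutation p adjusted over 69 relations 0.00023 and 0.000138). Without the 2 pups farthest from the median of Zfp57, r was 0.89, and with each litter centred on its mean it was 0.81. The library kit marks strand, but with the counting setting unknown the reads of Mog and Zfp57 may not be fully separated, and the Mog level is uncertain for that reason.

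By the limma fit with Benjamini-Hochberg adjustment, 0 of the 8 genes passed an adjusted p of 0.05 in any comparison with saline, against a background of 0% of 13371 genes in Low Protein, 0.015% in MAM (2 genes) and 0% in Poly I:C. At an unadjusted p under 0.05, 2 of 8 were lower in Low Protein (Olig1 and Sox10), where 4.43% of all genes were lower and 7.08% passed in either direction. In MAM, 1 of 8 was lower (Sox10), where 7.64% of all genes were lower and 9.79% passed in either direction. In Poly I:C, 1 of 8 was lower (Sox10), where 5.35% of all genes were lower and 9.2% passed in either direction. With the test over the 4 groups at once (limma moderated F test), 0 of 8 passed with adjustment, against 0.165% of genes, and 0 of 8 at an unadjusted p under 0.05, against 12.3%. Sox10 (F test adjusted p = 0.417) and Olig1 (adjusted p = 0.438) had the smallest values of the 8 in the limma F test.

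The mean log2 value was below saline by any amount for 8 of 8 genes for Low Protein, 8 of 8 for MAM and 6 of 8 for Poly I:C, where Nkx2-2 and Mog were above. The Low Protein count includes Mog at a difference of 0.00, and the MAM count includes Mbp, which was above saline under both other scalings. Over all genes, 54.9%, 70.6% and 49.3% were below saline in these comparisons. Without saline pup 2.1, the counts were 8, 8 and 5 of 8, against 60.6%, 72% and 54.1% of all genes. The numbers lower at an unadjusted limma p under 0.05 were then 1, 0 and 1 of 8, against 2.92%, 11.2% and 4.17% of all genes. The median log2 difference of the 8 genes was -0.27 for Low Protein, -0.26 for MAM and -0.14 for Poly I:C, against -0.02, -0.07 and 0.00 over all genes. Without saline pup 2.1, these medians of the 8 genes were -0.19, -0.20 and -0.05. These are descriptions, since the comparisons share the saline pups and the 8 genes covary. For 0 of the 8 genes did a treatment group lie wholly below the saline pups, against 0.524% of all genes for Low Protein, 0.658% for MAM and 0.284% for Poly I:C. For none of the 8 did a treatment group lie wholly above them, and the share of all genes that did is not given here.

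**Figure D2:**
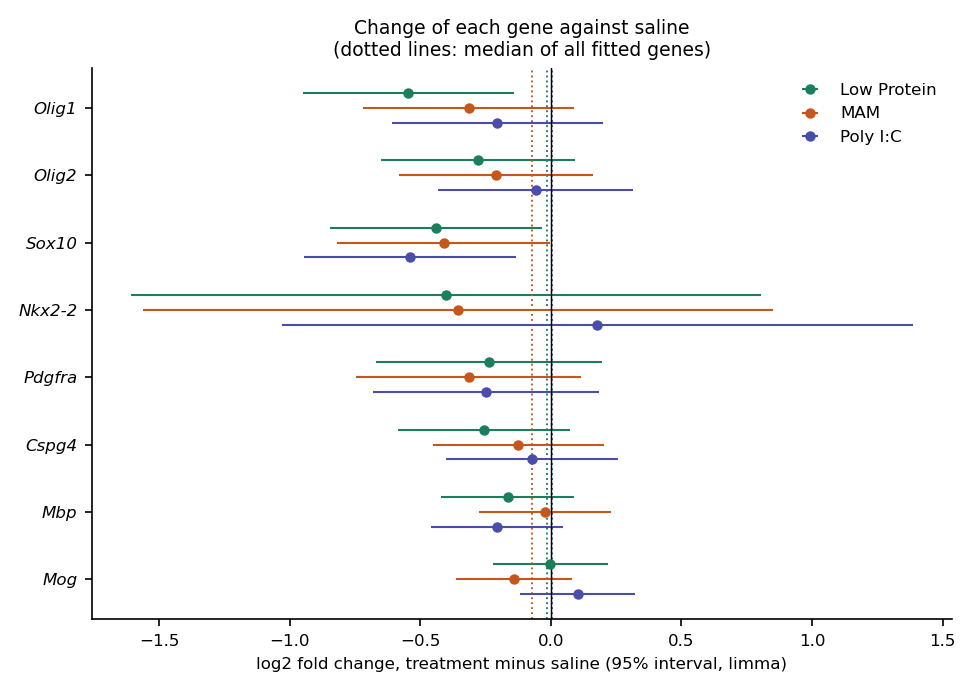
Log2 difference from saline of each gene (points) with 95% limma intervals (lines) for Low Protein, MAM and Poly I:C; dotted lines mark the median of 13371 genes in each comparison. The intervals of Sox10 lie below 0 in the 3 comparisons and that of Olig1 in Low Protein, and none of these passed with adjustment.

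The relations among the 8 genes across the 24 pups were uneven. Of the 69 relations computed on log2 values, Olig1 and Olig2 were the closest pair of the 8 (Pearson r 0.88, Spearman rho 0.85, permutation p adjusted over the 69 relations 0.00023 and 0.000138). Without the 2 pups farthest from the median of Olig1, r was 0.79, and with each litter centred on its mean it was 0.87. Nkx2-2 followed both, with an r of 0.69 to Olig1 (rho 0.67, permutation p adjusted 0.00117 and 0.00218) and 0.72 to Olig2 (rho 0.76, permutation p adjusted 0.000753 and 0.000591). Without the 2 farthest pups these were 0.63 and 0.69, and with litters centred 0.68 and 0.58. Sox10 had an r of 0.70 to Olig1 (rho 0.56) and of 0.71 to Olig2 (rho 0.59), with adjusted permutation p-values of 0.000753 for both r. Without the 2 farthest pups, one of which is saline pup 2.1, these were 0.53 and 0.50.

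Pdgfra and Cspg4 formed the other pair (r 0.78, rho 0.81, permutation p adjusted 0.00023 and 0.000138). Without the 2 farthest pups r was 0.76, and with litters centred it was 0.82. The pairs were not fully apart. Cspg4 had an r of 0.56 to Olig2 (rho 0.51, permutation p adjusted 0.0149 and 0.032) and of 0.45 to Olig1 (rho 0.49, permutation p adjusted 0.0647 and 0.0409), and without the 2 farthest pups, one of which is saline pup 2.1, these were 0.46 and 0.32. Pdgfra had an r of 0.24 to Olig1 (rho 0.37) and of 0.34 to Olig2 (rho 0.37). Mbp and Mog had an r of 0.21 and 0.19 to Olig1 and of 0.31 to each other.

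**Figure D3:**
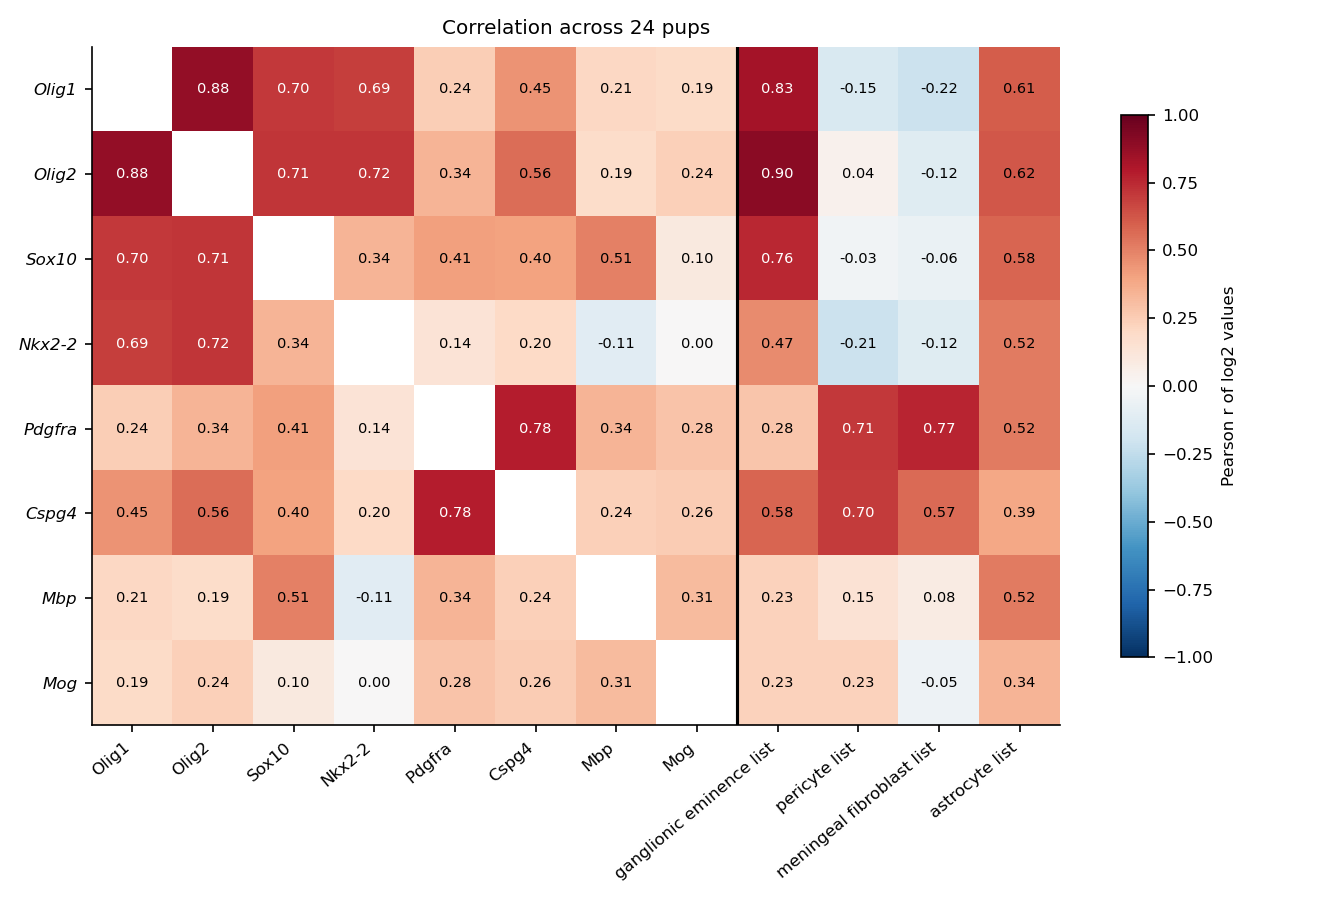
Pearson r of log2 values over 24 pups between the 8 genes (left of the line) and between each gene and the mean score of 4 marker lists (right of the line); blank squares are a gene with itself. Olig2 reaches 0.90 with the ganglionic eminence list and 0.04 with the pericyte list, whereas Pdgfra has 0.28 and 0.71.

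Markers of other cells moved with these pairs. List scores are averages of log2 values over the markers of a pup. The score of 9 ganglionic eminence markers, among them Dlx1, Dlx2, Lhx6, Nkx2-1 and Gad1, had an r of 0.90 with Olig2 (rho 0.85, permutation p adjusted 0.00023 and 0.000138), 0.83 without the 2 farthest pups and 0.92 with litters centred. Its r was 0.83 with Olig1 (rho 0.80, permutation p adjusted 0.00023 and 0.000138), 0.71 without the 2 farthest pups and 0.76 with litters centred. With Sox10, r was 0.76 (rho 0.62, permutation p adjusted 0.000805 and 0.00814), 0.51 without the 2 farthest pups and 0.77 with litters centred. With Cspg4, r was 0.58 (rho 0.58, permutation p adjusted 0.00929 and 0.0135), 0.49 without the 2 farthest pups and 0.57 with litters centred. With Pdgfra, r was 0.28 (rho 0.37, permutation p adjusted 0.318 and 0.14).

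The score of 7 pericyte markers had an r of 0.71 with Pdgfra (rho 0.69, permutation p adjusted 0.000753 and 0.00218) and 0.70 with Cspg4 (rho 0.68, permutation p adjusted 0.000753 and 0.00218). Without the 2 farthest pups these were 0.67 and 0.61, and with litters centred 0.83 and 0.77. Its r was -0.15 with Olig1 and 0.04 with Olig2. The score of 5 meningeal fibroblast markers had an r of 0.77 with Pdgfra (rho 0.71, permutation p adjusted 0.00023 and 0.00153), 0.56 without the 2 farthest pups and 0.87 with litters centred. The score of 6 astrocyte markers was related to several of the genes, with an r of 0.62 to Olig2, 0.61 to Olig1, 0.58 to Sox10 and 0.52 to Pdgfra. Without the 2 farthest pups, both of Poly I:C litter 2, these were 0.55, 0.52, 0.30 and 0.46.

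Thalamic markers bear on Nkx2-2, which is also expressed at the border of the thalamus. The score of Gbx2 and Lhx9 had an r of 0.55 with Nkx2-2 (rho 0.76, permutation p adjusted 0.0162 and 0.000591) and 0.67 with Olig2 (rho 0.73, permutation p adjusted 0.00138 and 0.000776), and 0.50 and 0.85 without the 2 farthest pups. This list was added to the relations after the values were seen and holds only 2 genes.

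**Figure D4:**
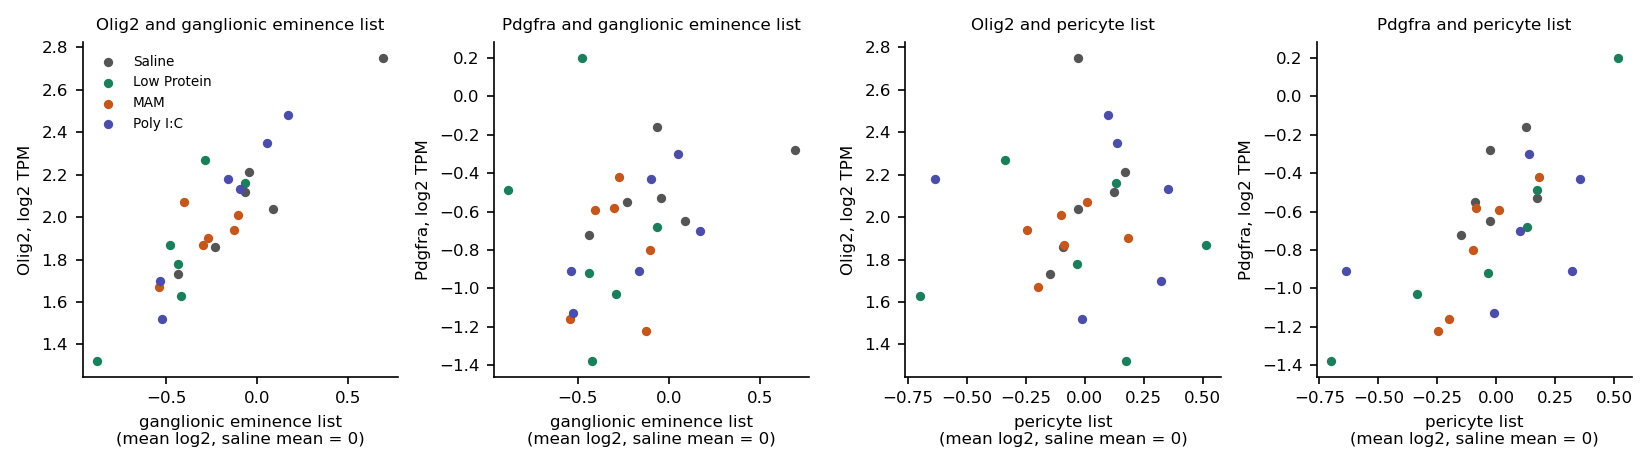
Log2 TPM of Olig2 and Pdgfra (vertical axes) against the score of the ganglionic eminence and pericyte marker lists (horizontal axes, mean log2 value with the saline mean at 0), with 1 point a pup and colors for the 4 groups. Over 24 pups, Olig2 follows the ganglionic eminence score (r 0.90) and not the pericyte score (r 0.04), and the reverse holds for Pdgfra (r 0.28 and 0.71). The reversal for Pdgfra is not seen in every group. Its r with the 2 scores was -0.25 and 0.95 in Low Protein and 0.00 and 0.90 in MAM. In saline it was 0.54 and 0.53, and in Poly I:C 0.72 and 0.40.

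Of these lists, the ganglionic eminence markers are given by level as well, since Olig1, Olig2 and Sox10 followed them. Their summed TPM ranged from 52.0 to 107 in saline pups (median 66.8), from 44.2 to 64.8 in Low Protein (median 55.7), from 48.4 to 66.0 in MAM (median 56.7) and from 51.7 to 76.0 in Poly I:C (median 63.6). The mean log2 value of 9 of 9 markers was below saline in each comparison. Over all genes, 54.9% were below saline for Low Protein, 70.6% for MAM and 49.3% for Poly I:C. The median log2 difference of the 9 markers was -0.39 for Low Protein, -0.24 for MAM and -0.16 for Poly I:C. At an unadjusted limma p under 0.05, 6 of 9 were lower for Low Protein, 3 for MAM and 0 for Poly I:C, where 4.43%, 7.64% and 5.35% of all genes were lower, and 0 passed with adjustment. Without saline pup 2.1, the numbers lower were 2, 0 and 0 of 9, against 2.92%, 11.2% and 4.17% of all genes. The median log2 differences of the 9 markers were then -0.26, -0.11 and -0.03. In Poly I:C, 6 of 9 were then below saline, against 54.1% of all genes. Of the 9 markers, 5 also belong to a list that the study examined in these samples, among them Dlx1, Lhx6 and Nkx2-1. None of the 9 was at the offset in any pup. The part of ganglionic eminence tissue in the Olig1, Olig2 and Sox10 values was not tested.

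Genes whose pattern was most like that of a member were found by Pearson r over 24 pups with each group centred on its mean, with no test. For Olig2 they were Dusp26 (0.94), Ecel1 (0.93), Nkx2-1 (0.93), Prmt2 (0.92) and Tcerg1l (0.91). For Olig1 they were Adcy2 (0.92), Tubb2a (0.91), Ecel1 (0.90), Cbln4 (0.90) and Fbxo44 (0.90). Ecel1 was on both lists. For Pdgfra they were Adamts15 (0.95), Akap12 (0.93), Dcdc2 (0.93), Ppfibp1 (0.93) and Enpep (0.91), none of which was on the lists of Olig1 or Olig2.

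Of 55 other genes of the lineage and its signals, 52 were fitted. In the limma fit, 0 of 52 passed with adjustment in any comparison. At an unadjusted p under 0.05, 1 was higher and 4 lower in Low Protein, 1 higher and 1 lower in MAM, and 3 higher and 5 lower in Poly I:C. Of all genes, 2.65% were higher at that threshold for Low Protein, 2.15% for MAM and 3.85% for Poly I:C. The shares of all genes that were lower were 4.43%, 7.64% and 5.35%.

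Among 7 fitted transcription factors of the lineage, Nkx6-1, a ventral progenitor gene, had a log2 difference of 1.00 for Low Protein (SE 0.327, limma adjusted p = 0.663, exact permutation p = 0.0152), 0.62 for MAM and 0.70 for Poly I:C (adjusted p = 0.534, exact permutation p = 0.0152). It ranged from 0.0352 to 0.0754 TPM in saline pups and from 0.0618 to 0.238 in Low Protein, where 4 of 6 pups were above every saline pup. Its estimated reads were 9 to 97 in these pups, so counting error is large. Sox9, a gene of glial progenitors, ranged from 4.05 to 5.29 TPM in saline pups and from 4.78 to 6.26 in Poly I:C, with 4 of 6 Poly I:C pups above every saline pup. Its log2 difference there was 0.27 (SE 0.11, limma adjusted p = 0.462, exact permutation p = 0.0152).

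Of 5 ligands, Pdgfa, which encodes the ligand of PDGFRA, ranged from 0.390 to 0.474 TPM in saline pups and from 0.301 to 0.413 in Poly I:C. Its log2 difference was -0.24 in Poly I:C (SE 0.0845, limma adjusted p = 0.406, exact permutation p = 0.0368), -0.17 in MAM and -0.13 in Low Protein. Thus 6 of 6 Poly I:C pups were below the saline mean for the ligand, whereas 4 of 6 were for the receptor gene Pdgfra. The ligand gene Shh, whose product starts Hedgehog signaling, did not pass in any comparison, with log2 differences of -0.64 for Low Protein, -0.30 for MAM and 0.07 for Poly I:C. Of 6 Hedgehog pathway genes, 1 was lower in Poly I:C at an unadjusted p under 0.05 (Gli1, log2 difference -0.26), and the list's median log2 difference was 0.04 for Low Protein, 0.03 for MAM and 0.08 for Poly I:C.

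Of 6 genes that hold back differentiation, Hes1, a target of Notch signaling, ranged from 2.4 to 3.83 TPM in saline pups and from 3.35 to 4.06 in MAM. Its log2 difference was 0.27 in MAM (SE 0.112, limma adjusted p = 0.509, exact permutation p = 0.0216) and 0.23 in Poly I:C (adjusted p = 0.543, exact permutation p = 0.121), and 6 of 6 MAM pups were above the saline mean. Of 11 fitted progenitor surface and matrix genes, 10 were below saline for Low Protein, 10 for MAM and 9 for Poly I:C. Over all genes, 54.9%, 70.6% and 49.3% were below saline in these comparisons. Lingo1, which encodes a receptor component that limits differentiation, ranged from 6.47 to 7.74 TPM in saline pups, from 5.78 to 6.81 in Low Protein and from 5.60 to 6.96 in Poly I:C. Its log2 difference was -0.16 in Low Protein (SE 0.0594, limma adjusted p = 0.684, exact permutation p = 0.0216) and -0.17 in Poly I:C (adjusted p = 0.405, exact permutation p = 0.0238), with 6 of 6 pups below the saline mean in both. Lingo1 is also expressed by neurons. Vcan, the gene of the matrix proteoglycan versican, had a log2 difference of -0.30 in MAM (SE 0.135, limma adjusted p = 0.509, exact permutation p = 0.0325).

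Of 17 fitted myelin and mature oligodendrocyte genes, 13 were below saline for Low Protein, 13 for MAM and 12 for Poly I:C. Over all genes, 54.9%, 70.6% and 49.3% were below saline in these comparisons. The median log2 differences of the 17 genes were -0.20, -0.13 and -0.14, against -0.02, -0.07 and 0.00 over all genes. Mag, the gene of myelin-associated glycoprotein, ranged from 0.0688 to 0.186 TPM in saline pups and from 0.0303 to 0.0896 in Poly I:C, where 6 of 6 pups were below the saline median (log2 difference -0.70, SE 0.265, limma adjusted p = 0.431, exact permutation p = 0.0455). Its highest saline value was that of pup 2.1, without which the difference of Mag was -0.52 and no longer passed the unadjusted threshold. Without that pup, Nkx6-1, Gli1 and Hes1 in Poly I:C, Hes1 in MAM and Cnp in Low Protein also no longer passed it, and kept their direction. Cnp, an early myelin gene, ranged from 6.17 to 7.69 TPM in saline pups and from 5.73 to 6.40 in Low Protein (log2 difference -0.14, SE 0.0656, limma adjusted p = 0.701, exact permutation p = 0.0281). Enpp6 and Fa2h, which mark newly formed and mature oligodendrocytes, also passed the unadjusted threshold in Low Protein, but with estimated reads of 0 to 8 for Enpp6 and 0 to 19 for Fa2h in the saline and Low Protein pups, and no fold change is given for them.

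**Figure D5:**
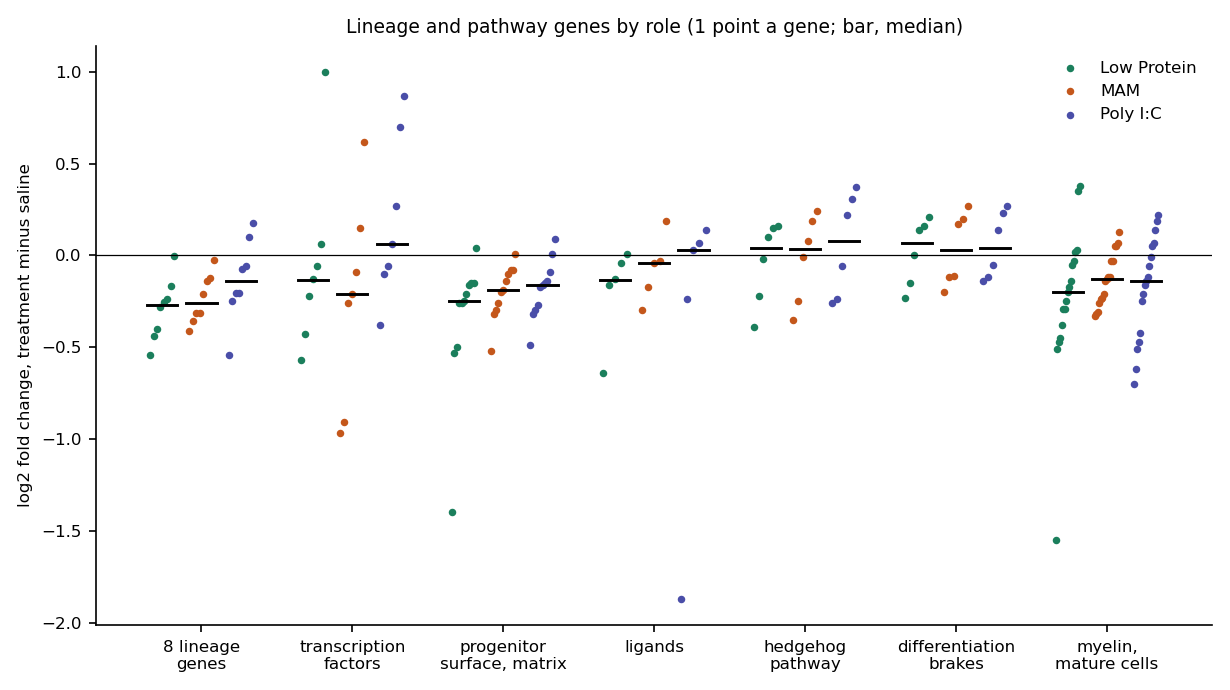
Log2 difference from saline of the 8 genes and of 52 fitted genes in 6 lists by role (1 point a gene, bars mark the median of a list) for Low Protein, MAM and Poly I:C. The median lies at -0.25 in Low Protein for progenitor surface and matrix genes and at 0.04 for Hedgehog pathway genes; the lowest points are genes with few reads, among them Enpp6, Fa2h and Fgf2.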

How the data were processed

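RNA from the hippocampus and neocortex of 24 rat pups (Sprague-Dawley, E18, 6 a group) was analysed. The authors aligned reads to rn6 with STAR (version 2.4.1d, per the submitters' processing notes), quantified RefSeq transcripts in Partek and deposited TPM values with an offset of 0.0001. No read counts were used. Depth was estimated from steps of 1 read, taking value times the GRCr8 span (17010 genes). By this estimate 49.4% to 54.5% of low values were whole reads (tolerance 0.05), against 10% by chance, so depth is approximate and no count model was run.

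Each treatment was compared with saline on log2 of the deposited TPM with limma (version 3.58.1, R version 4.3.3, lmFit and eBayes, all 24 pups). P-values were adjusted by Benjamini-Hochberg over the 13371 genes above the offset in at least 18 pups. The limit of the study, a mean above 1 in every group, leaves 5086 genes and only Olig1, Olig2 and Mog of the 8, and was an alternative. Exact permutation tests had 924 splits, and permutation p-values of correlations came from 100000 permutations. The fit was tested on simulated data. The members and lists were chosen with earlier results of these data known. Named besides the 8 genes are up to 5 listed genes per comparison with the lowest unadjusted p under 0.05, and 5 genes most like each of Olig1, Olig2 and Pdgfra. Gli1, Shh, Neurod6 and Tbr1 were named outside this rule after their values were seen. Some genes that this rule or the marker lists hold are not reported here. Promoter sequences came from RefSeq (GRCr8), in which 5 of the 8 genes had an entry.

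The list counts without saline pup 2.1 were added after the data were seen. Alternatives covered the filter, pseudocount, scaling, variance trend, pups in the fit, litter, replicate number and leaving out each pup and litter (43 settings).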

Additional observations from a re-analysis of the deposited data

Results flagged for a closer look

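Within groups of 6 pups, the gap from the highest or lowest pup to its neighbor, divided by the range of the group, was compared with Dixon's critical value of 0.625 in 32 groups, and about 1 in 20 groups would pass by chance. Sox10 in saline pup 2.1 (0.993 TPM, ratio 0.6455) and Nkx2-2 in the same pup (0.575 TPM, ratio 0.6533) stood apart from the other saline pups. Nkx2-2 in MAM pup 1.2 (0.636 TPM, ratio 0.7826) stood apart from the other MAM pups, which ranged from 0.205 to 0.262. These values were kept in the comparisons.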

How the results depend on the processing

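No adjusted p of the 8 genes was under 0.05 in any of the 43 alternatives. Of 24 differences (8 genes in 3 comparisons), 21 kept their direction in the 11 alternatives that left out no pup, 20 in each of the 24 fits without a pup, and 17 in each of the 8 fits without a litter. With the limit of the study, the number of genes at an unadjusted p under 0.05 was 1 for Low Protein, 0 for MAM and 0 for Poly I:C, since Sox10 was not tested. It was 0 in MAM under both other scalings, 2 in Poly I:C with upper quartile scaling and 0 in Poly I:C with litter means. On litter means Sox10 passed in no comparison, and the genes that passed were Olig1 and Cspg4 in Low Protein and Pdgfra in MAM. Without 1 pup or litter it ranged from 0 to 4 for Low Protein, 0 to 1 for MAM and 0 to 3 for Poly I:C. In the F test, 1 of the 8 passed unadjusted with a pseudocount of 0.1, upper quartile scaling or a variance trend, and 0 to 3 without 1 pup or litter. Genes called with adjustment numbered 4 in Poly I:C with a pseudocount of 0.1 or 1 and 3 with median of ratios scaling (main 0), 1 in Low Protein under both scalings (main 0), and in MAM 1 with the limit of the study and 0 with litter means (main 2). Without 1 pup or litter they ranged from 0 to 13 for Low Protein, 0 to 3 for MAM and 0 to 205 for Poly I:C, where 205 is the count with litter 1 of that group left out. The causes of these shifts were not tested. In the MAM comparison, the median of all genes moved from -0.07 to -0.01 with median of ratios scaling.

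Directions turned in some differences near 0 in the main fit, such as Mog at -0.0013 (Low Protein) and Mbp at -0.0235 (MAM). Larger main differences turned as well: Nkx2-2 at -0.4005 (Low Protein), Olig1 at -0.2053 (Poly I:C) and Nkx2-2 at 0.1784 (Poly I:C). With a pseudocount of 1, Nkx2-2 in Low Protein was 0.0013 and Mog in Low Protein 0.0004. With median of ratios scaling, Mog in Low Protein was 0.0236 and Mbp in MAM 0.0412, and with upper quartile scaling 0.0078 and 0.0304. Without 1 pup or litter, log2 differences ranged from -0.0797 to 0.0327 for Mbp in MAM, -0.1642 to 0.1615 for Mog in Low Protein, -0.0347 to 0.2397 for Mog in Poly I:C, -1.1427 to 0.3418 for Nkx2-2 in Low Protein, -0.7887 to 1.1455 for Nkx2-2 in Poly I:C, -0.4791 to 0.0685 for Olig1 in Poly I:C and -0.3367 to 0.2194 for Olig2 in Poly I:C.

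Pups with the same number in different groups deviated together in part. Of 36 such pairs, 22 had a correlation above 0.1, and the median was 0.17 (from -0.34 to 0.45). Of 24 pups, 9 correlated best with their own number. Within a group, the median was -0.23 over 24 pairs of pups read as 1 litter. It was -0.25 over 36 pairs of pups read as different litters. In the alternative fit with a litter correlation, that correlation was 0.007. The reading of litters from pup numbers and the source of the likeness of same-numbered pups were not tested. With a replicate block, 1 gene was called in MAM. With that block, 3 of the 8 genes passed the unadjusted threshold in Low Protein (Cspg4 besides Olig1 and Sox10). In the unadjusted F test, 1 of the 8 genes passed with it. The shares of all genes that passed unadjusted with the replicate block are not given here.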
